A study of Gallus gallus with 4 samples.

Results

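STX8, FAM18B1, PMP22, COX10 and METRNL are 5 genes of chicken chromosome 18 that follow one another along the chromosome when only genes with a measurable signal are counted. They were chosen by their values in the comparison described here, as a run of neighbours that read higher in cells with a short hairpin RNA (shRNA) against HOPX than in cells with a control shRNA. The array holds 12 probe sets that its annotation names for these genes, of 38535 in all. Of these, 7 had a mean of at least 4 over the arrays, the minimum for testing, with at least 1 for each gene, and 5 did not. Because the same comparison chose the genes, their own differences are given as a description and without a test.

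The cells were PR9692, a line derived from a sarcoma of chickens of the strain CC.R1, grown in culture. Both groups were stably transfected, 1 with a control shRNA and the other with an anti-HOPX shRNA. HOPX codes for a small homeodomain protein that does not itself bind DNA. The series' design text calls the control form metastatic and the anti-HOPX form non-metastatic. Each form has 2 Affymetrix chicken arrays, whose labels call them biological replicates without saying whether they were separate cultures, or whether a form was a clone or a pool. All p-values therefore measure the spread between these arrays, which may be technical. Values are log2 units, where 1 is a doubling, and each difference is the anti-HOPX mean minus the control mean.

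The 5 genes have unlike jobs. STX8 (syntaxin 8) is one of the SNARE proteins that let late endosomes fuse, where it pairs with STX7, VTI1B and VAMP8. FAM18B1, also called TVP23B, is a Golgi membrane protein conserved from yeast. PMP22 is a membrane glycoprotein of compact myelin, known in humans for inherited neuropathies, and was also found in mouse fibroblasts as a gene switched on at growth arrest. COX10 attaches a farnesyl group to haem in mitochondria, the first step towards the haem A that cytochrome c oxidase needs. METRNL (meteorin-like) is a secreted protein described in mice as a signal from muscle and fat.

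The labels were checked first. HOPX itself read 3.23 and 3.72 in the control pair against 3.21 and 3.54 in the anti-HOPX pair at its brighter probe set, near the background in both forms, so it does not check which form is which. Mesenchymal markers were present, with 9 of 10 at a mean of at least 4, and 2 of them were called higher in anti-HOPX cells, COL1A1 (1.73, limma adjusted p = 0.002) and PRRX1 (0.64, limma adjusted p = 0.038). COL1A2, which did not reach that mean, went the other way, from 4.76 in control to 2.59 in anti-HOPX cells. Without a call, FN1, SPARC, SNAI2 and THY1 had higher means in anti-HOPX cells, and VIM, COL3A1 and TWIST1 lower ones. By contrast 0 of 4 epithelial, 0 of 4 skeletal muscle and 0 of 3 Schwann cell and myelin markers on the array reached a mean of at least 4. Of 5 fat markers 2 reached it, FABP4 (2.30, limma adjusted p = 0.067) and PPARG (0.48, limma adjusted p = 0.50). The summed linear signal of the list ran from 601 to 1680 on the control and from 3440 to 5600 on the anti-HOPX arrays, most of it FABP4, while ADIPOQ and PLIN1 stayed under 2.5 in both forms. Of 6 blood and macrophage markers 2 reached it, SPI1 (0.54, limma adjusted p = 0.17) and CD74, which was called higher (1.45, limma adjusted p = 0.025), with a summed signal of 332 to 364 in control and 464 to 589 in anti-HOPX cells and PTPRC under 3. Only 1 of 5 endothelial markers did. In such bulk samples more cells of a type and more RNA per cell cannot be told apart, and the part of other cells in the results below was not tested. The tested probe sets correlated at 0.992 (Pearson's r) for the control pair, 0.985 for the anti-HOPX pair and 0.954 to 0.959 for arrays of unlike form, as a description of arrays that share their probes.

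All 5 genes read higher on both anti-HOPX arrays than on both control arrays. The differences of their brightest probe sets ran from 1.01 for METRNL to 1.80 for COX10, with a median of 1.32, or 2.01-fold to 3.47-fold. Over all 7691 named genes tested the median difference was 0.02, and 5% lay above 0.78. Both anti-HOPX arrays lay above both control arrays for 30.0% of all genes and below them for 28.2%, and 3.09% of all genes were higher by at least 1, so these counts carry no weight for genes picked on this comparison. Among the members the smallest gap between the forms was 0.77 and the widest spread within a form was 0.33.

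STX8, the endosomal SNARE, read 10.48 and 10.28 in the control pair and 11.93 and 11.82 in the anti-HOPX pair. The groups were far apart, with a mean of 10.38 ± 0.14 (SD, n = 2) in control and 11.87 ± 0.08 in anti-HOPX cells, a difference of 1.49 (SE 0.11) or 2.81-fold. A second tested probe set, designed on the same transcript, read 8.60 and 8.75 against 9.98 and 10.08, a difference of 1.36 (SE 0.09). Its other 2 probe sets stayed at the low end in both forms, between 2.52 and 3.25, and showed no difference larger than 0.04.

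FAM18B1, the Golgi membrane protein, has 1 probe set. It read 10.53 and 10.48 in the control pair and 11.77 and 11.87 in the anti-HOPX pair, which is the tightest pair of groups among the members. The means were 10.50 ± 0.04 (SD, n = 2) and 11.82 ± 0.07, a difference of 1.32 (SE 0.06) or 2.49-fold.

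PMP22, the myelin protein, read 11.06 and 10.83 in the control pair and 12.41 and 12.12 in the anti-HOPX pair. Its means of 10.94 ± 0.16 (SD, n = 2) and 12.27 ± 0.21 differed by 1.32 (SE 0.19), or 2.50-fold. A second probe set gave nearly the same difference, 1.31 (SE 0.20), from 9.97 and 9.74 in control to 11.33 and 11.00 in anti-HOPX cells. Its last probe set stayed near background and read 2.86 to 2.94. PMP22 was thus measured well above background in both forms, whereas the myelin protein MBP averaged 3.70 in control and 3.84 in anti-HOPX cells, and the Schwann cell factor SOX10 averaged 2.26 and 2.27.

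COX10, the haem farnesyltransferase, had the largest difference of the 5 but is also where the probe sets disagree. Its brightest probe set read 7.70 and 7.77 in the control pair and 9.39 and 9.66 in the anti-HOPX pair, with means of 7.73 ± 0.05 (SD, n = 2) and 9.53 ± 0.19, a difference of 1.80 (SE 0.14) or 3.47-fold. A second probe set went the other way, from 4.14 and 4.77 in control to 3.28 and 3.36 in anti-HOPX cells. With values under 4 raised to 4 it was at least 1.37-fold lower, and its mean of 3.89 put it just under the minimum for testing. The last of its 3 probe sets read 2.21 to 2.62 with overlapping groups. Its name shares a stem with probe sets that the annotation gives to CDRT1, another gene of the run, so its assignment to COX10 is uncertain.

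METRNL, the secreted protein, has 1 probe set, which read 11.93 and 11.60 in the control pair and 12.69 and 12.85 in the anti-HOPX pair. Its forms were the closest of the 5, with means of 11.76 ± 0.23 (SD, n = 2) and 12.77 ± 0.11, a difference of 1.01 (SE 0.18) or 2.01-fold.

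**Figure D1:**
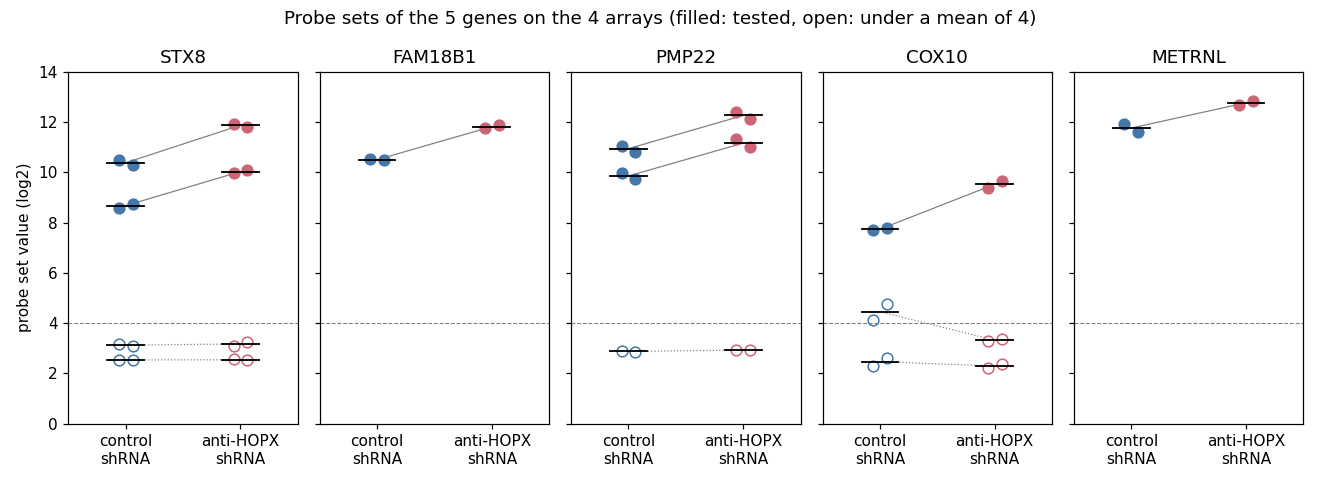
Log2 values of all 12 probe sets of the 5 genes, with 1 point per array, a black bar for the mean of 2 arrays, and lines joining the means of a probe set. The 7 filled probe sets lie higher on both anti-HOPX arrays, while the 5 open ones, with a mean under 4 (dashed line), stay low and 1 of COX10 reads lower in the anti-HOPX pair.

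By their brightest probe sets the order of the differences was COX10, STX8, PMP22, FAM18B1 and METRNL. When each of the 4 arrays was left out in turn, the difference of COX10 ran from 1.66 to 1.93 and that of STX8 from 1.39 to 1.59, so these ranges did not meet. The range of PMP22, 1.18 to 1.47, overlapped those of STX8 and of FAM18B1, which ran from 1.27 to 1.37. With the same array left out, however, STX8 was above PMP22 each time, closest without anti-HOPX replicate 2 (1.544 against 1.468). METRNL, at 0.84 to 1.17, stayed below the other 4. With the same array left out it came closest to PMP22 without anti-HOPX replicate 1, at 1.08 against 1.176, a margin smaller than its SE of 0.18. With the mean over all probe sets of each gene it was FAM18B1 (1.318), METRNL (1.005), PMP22 (0.898), STX8 (0.725) and COX10 (0.161), since probe sets near background then count too.

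The order of genes was taken from the RefSeq gene table of the assembly GRCg7b, and no coordinates are given because the build behind the array is not given in the sources used here. From STX8 to METRNL that table lists 13 protein-coding genes, in the order STX8, TBC1D24L, CFAP52, USP43, ARHGAP44, CDRT1, FAM18B1, TEKT3, PMP22, HS3ST3B1L, COX10, HS3ST3A1 and METRNL. The 8 genes that are not members are therefore part of the same stretch. For 6 of them the array has 9 probe sets, all between 1.96 and 2.51 on every array, so these probe sets were at the bottom of the scale in both forms. HS3ST3B1L and HS3ST3A1, which code for heparan sulphate sulphotransferases, have no probe set named for them. A value at the floor does not show that a gene is off, since STX8, PMP22 and COX10 have probe sets there too. The 5 members are neighbours among measured genes, then, with genes between them that had no measurable signal or no probe set.

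The nearest measured genes outside the run differed between its 2 sides. On the STX8 side the nearest measured gene is PIK3R5, a regulatory subunit of phosphoinositide 3-kinase gamma, 2 coding genes away. It read 5.92 and 5.78 in control and 5.92 and 5.94 in anti-HOPX cells, a difference of 0.08, and its second tested probe set differed by -0.08. NTN1, which lies between, read 2.21 to 2.24. On the METRNL side the nearest measured gene is TBCD, a tubulin folding cofactor, which read 11.06 and 10.97 against 11.82 and 11.69. That difference of 0.74 is 1.67-fold, under the 2.01-fold of METRNL, the last gene inside. Both anti-HOPX arrays lay above both control arrays in TBCD too, so by that measure METRNL is not the last gene of the stretch, which has 6 genes from STX8 to TBCD. PIK3R5 and TBCD bound the run and are given without a test.

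Beyond these, the measured genes on the 2 sides differed in how many were higher. Of 9 genes on the STX8 side 6 were called higher, and all 9 had both anti-HOPX arrays above both control arrays, with a median difference of 1.38. Of 9 genes on the METRNL side 1 was called higher, 4 had both arrays above and 2 had both below, with a median of 0.11. Over all genes tested 30.0% had both arrays above and 28.2% both below. A gene was called where its adjusted p was under 0.05 in limma, a linear model that shares the spread between arrays across probe sets. Of all genes tested, 3.63% were called higher and 5.24% lower, and the same shares of the 14851 probe sets were 3.12% and 4.54%. The difference between the sides was not tested, and the place of these genes next to a run chosen for being high is part of how they came to be looked at. Of the 18 genes 7 were called higher and 0 lower, while 10 and 2 had an unadjusted limma p under 0.05 in those directions. Over all 7691 genes tested, 1011 and 1119 had such a p.

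MYH10, the heavy chain of non-muscle myosin IIB, lies 6 coding genes from STX8 and is the nearest called gene on that side. It read 12.17 and 12.38 in control against 13.29 and 13.01 in anti-HOPX cells, a difference of 0.88 (SE 0.14, limma adjusted p = 0.026), though a dimmer probe set missed the threshold (0.59, limma adjusted p = 0.21). NDEL1, a partner of the motor dynein, lies beside it and read 9.48 and 9.62 against 9.96 and 10.40, a difference of 0.63 that missed the threshold (limma adjusted p = 0.11).

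The other called genes of that side were named after their values were seen. MAP2K4, a kinase that activates JNK and p38, went from 7.11 and 6.69 to 8.41 and 8.67 (1.64, SE 0.22, limma adjusted p = 0.017). TMEM220, a membrane protein, gave 1.38 at its brightest probe set (limma adjusted p = 0.025) and 1.32 at its second (limma adjusted p = 0.031). SCO1, a copper chaperone of cytochrome c oxidase, read 3.72 and 3.67 against 4.84 and 4.70, at least 1.71-fold higher (limma adjusted p = 0.034). It reached the minimum for testing only through the anti-HOPX arrays, so its call, counted among the 6 of this side, carries no weight. The same holds for its place among the genes with both anti-HOPX arrays above both control arrays.

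GAS7, a growth arrest-specific gene active in neurons, differed by 1.58 (limma adjusted p = 0.022). ZNF302, a zinc finger gene, read 8.79 and 8.73 against 10.49 and 10.52 (1.74, SE 0.13, limma adjusted p = 0.0028). The probe sets of zinc finger genes can share sequence with related genes, and its 2 other tested probe sets gave 1.69 (limma adjusted p = 0.015) and 0.73 (limma adjusted p = 0.095). ELAC2, which trims the 3' ends of tRNAs, shows how a call can hang on the probe set. Its brightest probe set missed the threshold (1.42, limma adjusted p = 0.089), with 7.70 and 8.81 on the anti-HOPX arrays, whereas its second passed (1.83, limma adjusted p = 0.024). The remaining gene, MYH1E of the skeletal myosin cluster, read 3.92 to 4.60 and differed by 0.35 (limma adjusted p = 0.41), near background and in a family whose copies may share probes.

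On the METRNL side the first 2 measured genes past TBCD had lower means in anti-HOPX cells and did not pass the test. FN3K, which removes sugars from glycated proteins, read 5.18 and 5.24 against 4.76 and 4.0 (-0.83, limma adjusted p = 0.16). RAB40B, a small GTPase of a ubiquitin ligase complex, read 7.40 and 7.43 against 6.93 and 6.86 (-0.52, limma adjusted p = 0.14). In both genes the anti-HOPX arrays lay below the control arrays. OGFOD3, 13 coding genes from METRNL and named after its value was seen, was the called gene of that side (0.69, SE 0.13, limma adjusted p = 0.041).

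Fits without control replicate 1 or without control replicate 2 take the spread from the anti-HOPX pair alone. They assume that the single control array varies like it. Calls fell over all probe sets in these fits, so nothing is read from a count of calls among the 18 genes. The differences were then 1.77 and 1.72 for ZNF302, 1.85 and 1.43 for MAP2K4 and 1.45 and 1.31 for TMEM220. Their direction could not change, since both anti-HOPX arrays lay above both control arrays in each of these genes. With no filter on low values ZNF302 was the 1 gene still called. In that setting 80 of all 38439 probe sets were called higher, against 464 of 14851 with the filter.

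**Figure D2:**
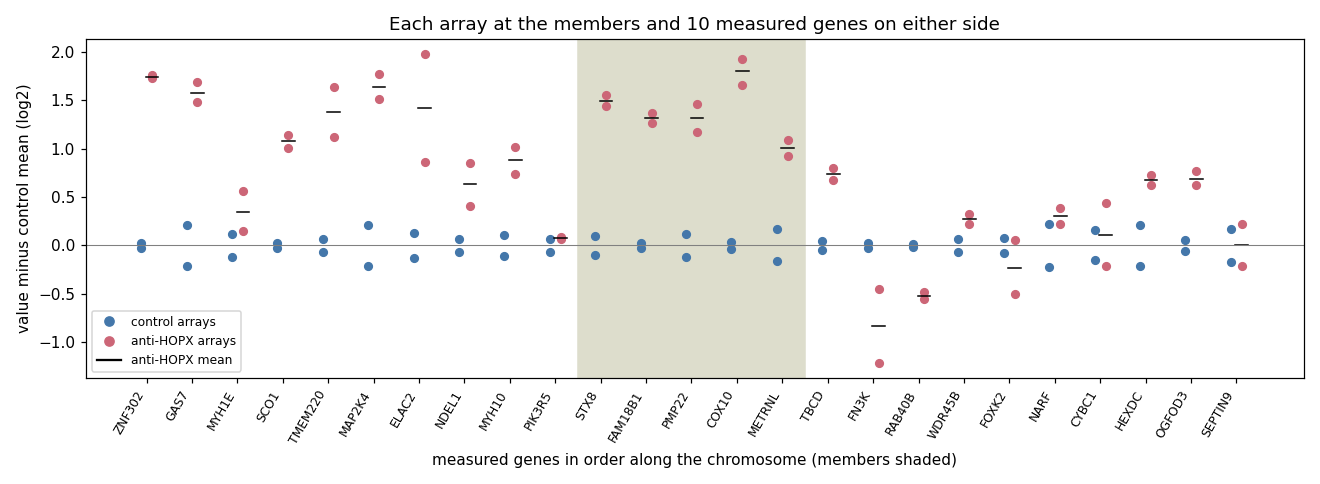
Value of each array minus the control mean (log2) for the 5 members (shaded) and 10 measured genes on either side, in chromosome order. Blue points are the 2 control arrays, red points the 2 anti-HOPX arrays and black bars their mean, and the 9 genes from ZNF302 to MYH10 lie higher on both anti-HOPX arrays, PIK3R5 does not, and the METRNL side is mixed past TBCD.

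ZNF302 is the first measured gene of chromosome 18 in the table, with 4 protein-coding genes before it that have no probe set. The run therefore sits close to 1 end of the chromosome, with STX8 as measured gene 11 and METRNL as measured gene 15 of 162. From that end FN3K was the first gene with a difference below 0, after 16 measured genes. Since that sign sets where this stretch ends, nothing is read from how many of its genes were above 0. Of the 146 measured genes past TBCD, 102 were above 0, against 52.2% of all named genes, 3 were higher by at least 1 and 2 lower by at least 1. The largest difference of the chromosome was that of SLC9A3R1, a scaffold protein of membrane transporters, which averaged 8.19 in control and 6.14 in anti-HOPX cells and was called lower (-2.05, SE 0.23). It was named after its value was seen. At the level of probe sets, 16 of the 18 tested ones on the STX8 side had both anti-HOPX arrays above both control arrays, and the exceptions were both those of PIK3R5. Among these 16, the probe set of SCO1 and a dimmer one of MAP2K4 reached the minimum for testing only through the anti-HOPX arrays. That of MAP2K4 read 3.51 and 2.45 in control against 5.76 and 5.25 in anti-HOPX cells, and neither of them carries weight. On the METRNL side 8 of 22 had both arrays above and 3 both below. Over all tested probe sets the share with both above was 27.9%. Several of these genes have more than 1 tested probe set, and such repeats are not separate evidence.

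Chromosome 18 as a whole, with the members left out, had 157 measured genes. Of these 10.2% were called higher and 1.27% lower, and the median difference was 0.15. Among the 29 chromosomes with at least 20 measured genes the share called higher ran from 0 to 13.6%, and chromosome 18 came after chromosome 34 in that order. By median difference it was in place 4, in a range from -0.378 to 0.205. The 157 genes include the 20 neighbours of a run that was picked for being high. TBCD, given above without a test, and SCO1, whose call carries no weight, are counted among the calls. The shares and places of the chromosome are therefore a description, and nothing is read from them. Away from the run and its 20 neighbours, 5.84% of 137 genes were called higher and 1.46% lower, and their place among the chromosomes was not determined.

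**Figure D3:**
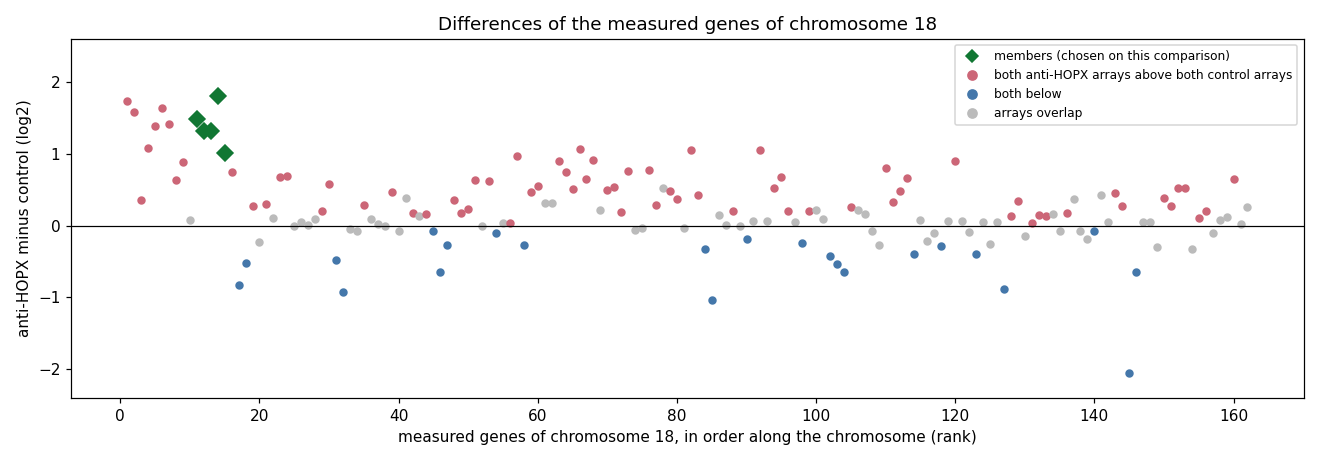
Difference between the forms (log2) for each of 162 measured genes of chromosome 18 in order along the chromosome. Green diamonds are the 5 members, red and blue points have both anti-HOPX arrays above or below both control arrays, and grey points overlap. Up to TBCD, 6 of the 11 genes that are not members were higher by at least 1, against 3.09% of all genes tested. The sign of the differences set where that stretch ends, so nothing is read from this count. Of the 146 genes past TBCD 3 were higher and 2 lower by at least 1.

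With the members left out, the genes whose 4-array pattern lay nearest to the mean pattern of the members were elsewhere in the genome. By the Euclidean distance between centred values over 4 arrays, they were KDM4B at 0.043, TTYH3 at 0.088, MYBPC3 at 0.102, NDST2 at 0.116 and TGFB1 at 0.131, on chromosomes 28, 14, 5, 6 and 38. KDM4B, a histone demethylase, read 7.04 and 6.86 in control and 8.31 and 8.30 in anti-HOPX cells. The members themselves lay at 0.110 for FAM18B1, 0.144 for STX8, 0.241 for PMP22, 0.412 for METRNL and 0.473 for COX10, all farther than KDM4B and TTYH3. With 4 arrays such a pattern holds little beyond the size of the difference.

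The partners of the members were then examined, in lists of the proteins that act with each or belong to its family. Of 99 symbols 75 are on the array and 67 were measured, and 7 of these were called higher and 3 lower, against 3.63% and 5.24% of all genes. Their median difference was 0.17. At an unadjusted limma p under 0.05 there were 16 higher and 10 lower of the 67, against 1011 and 1119 of all 7691 genes tested. Among the called genes, SCO1, TMEM47 and LRPPRC reached the minimum for testing through the arrays of a single form, so their calls carry no weight. STX7, VTI1B, TVP23A, COX15 and FECH are named below for their roles, after their values were seen.

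The late endosomal SNAREs and tethers that work with STX8 gave no call. Of 17 measured genes 0 were called higher and 0 lower by limma, with 2 and 1 at an unadjusted p under 0.05, and the median was 0.20. STX7, a partner of STX8 in its complex, read 9.83 and 9.54 against 10.38 and 9.83 (0.42, limma adjusted p = 0.31), and VTI1B differed by 0.27. Farthest from 0 were the SNARE recycling factor NAPA (0.77, limma adjusted p = 0.082) and the SNARE SNAP29 (-0.68, limma adjusted p = 0.059).

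Among 9 measured Golgi proteins of the YIPF and TVP23 kind, related in place or family to FAM18B1, 1 was called higher and 0 lower, with 2 and 0 at an unadjusted limma p under 0.05. TMEM167B, a small Golgi membrane protein, read 8.58 and 8.48 against 9.95 and 9.39 (1.14, SE 0.22, limma adjusted p = 0.042). YIPF1 (0.53, limma adjusted p = 0.092) and TMEM167A (0.32, limma adjusted p = 0.29) did not pass. The dimmer tested probe sets of TMEM167A did not pass either, at 0.67 (limma adjusted p = 0.061) and 0.33 (limma adjusted p = 0.36). TVP23A, the paralogue of FAM18B1, read 4.62 and 4.43 in control and 4.49 and 4.97 in anti-HOPX cells, with overlapping arrays.

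The relatives and partners of PMP22 moved in both directions. Of 8 measured genes 1 was called higher and 2 lower, with 1 and 3 at an unadjusted limma p under 0.05 and a median of -0.16. EMP1, an epithelial membrane protein of the same family, read 13.65 and 13.64 in control and 12.82 and 12.97 in anti-HOPX cells, and so fell by 0.75 (SE 0.10, limma adjusted p = 0.017) where PMP22 read higher. TMEM47, a distant tetraspan relative, went from 5.22 and 5.38 to 3.98 and 3.95, at least 2.47-fold lower (limma adjusted p = 0.021), and reached the minimum for testing only through control.

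MPZL1, an adhesion protein akin to the myelin protein zero, was higher at its brightest probe set (1.08, SE 0.16, limma adjusted p = 0.021), while another tested one gave -0.41 (limma adjusted p = 0.52). ITGA6, the laminin receptor chain that can bind PMP22, read 13.13 and 13.27 against 12.74 and 12.48 and just missed the threshold (-0.59, limma adjusted p = 0.053). CANX, the chaperone calnexin, differed by -0.19 (limma adjusted p = 0.78).

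Of 25 measured genes of haem handling and cytochrome c oxidase assembly, the setting of COX10, 3 were called higher and 1 lower, with a median of 0.14. At an unadjusted limma p under 0.05 there were 8 higher and 5 lower. The higher ones were CPOX, an enzyme of haem synthesis (0.91, SE 0.14, limma adjusted p = 0.023), HMOX2, which breaks haem down (1.05, SE 0.15, limma adjusted p = 0.021), and SCO1, one of the genes on the STX8 side described above. A dimmer probe set of HMOX2 did not pass (0.58, limma adjusted p = 0.14). LRPPRC, which stabilises mitochondrial messenger RNAs, read 4.79 and 5.28 in control and 3.71 and 3.31 in anti-HOPX cells, at least 2.05-fold lower (limma adjusted p = 0.032). It too reached the minimum for testing only through control.

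COX15, which takes the product of COX10 on to haem A, differed by 0.24 (limma adjusted p = 0.47), and ferrochelatase, FECH, which makes the haem that COX10 uses, by -0.11 (limma adjusted p = 0.75). ALAS1, the first enzyme of haem synthesis, read 10.64 and 10.78 against 9.67 and 10.23 (-0.76, limma adjusted p = 0.098), and the copper chaperone COX17 differed by 0.72 (limma adjusted p = 0.058). Among 8 measured subunits of the oxidase 2 were called higher and 0 lower, with 3 and 1 at an unadjusted limma p under 0.05. These were COX6C (0.85, SE 0.17, limma adjusted p = 0.042) and NDUFA4 (0.64, SE 0.12, limma adjusted p = 0.040). COX5A (0.51, limma adjusted p = 0.16) and COX6A1 (-0.30, limma adjusted p = 0.13) did not pass.

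For METRNL the comparison is short. METRN, its paralogue, averaged 1.94 in both forms, and KIT, the receptor named for METRNL in mice, averaged 2.73 in control and 2.76 in anti-HOPX cells, so neither was measurable.

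**Figure D4:**
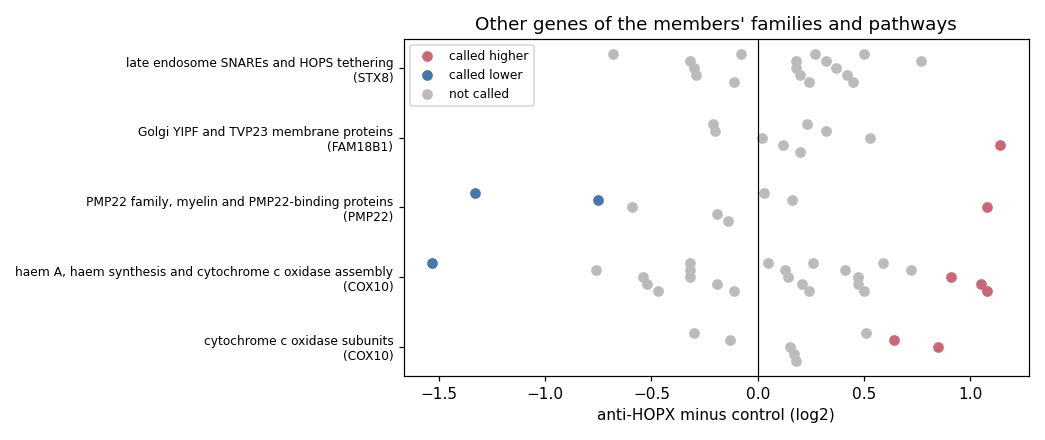
Difference between the forms (log2) for 67 measured genes in 5 lists, 1 row per list with points spread vertically to be seen. Red points are the 7 entries called higher, blue the 3 called lower and grey those not called by limma at an adjusted p under 0.05, and each list lies on both sides of 0.

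With a single control array, as for the neighbours, calls fell over all probe sets, so nothing is read from a count of calls in the lists. The differences of the 16 called neighbours and list genes were 83.7% to 115.7% of those with both control arrays. Their direction could not change, since the arrays of the 2 forms did not overlap in any of them. A call also favours a small control spread, so this range is no evidence for the calls. Fits without an anti-HOPX array leave a single array of that form in the same way, and nothing is read from their counts either.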

How the data were processed

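Total RNA of 4 cell samples was hybridised to Affymetrix chicken arrays, per the labels' protocols. The authors deposited log2 values between 0.75 and 15.97; that scale is inferred from their range. Per the submitters' processing notes the tools were Partek 6.4 and GCRMA, with no roles stated. GCRMA models background from probe sequence, normalises arrays to each other and presses weak probe sets towards a floor, so folds with any array under 4 are lower bounds, with values under 4 raised to 4. The number of arrays, 2 per form, limits the precision.

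The 96 control probe sets were left out. Probe sets with a mean of at least 4 were tested (14851) with limma 3.58.1 in R 4.3.3, with an intensity trend and no replicate block, adjusted by Benjamini-Hochberg over all of them. The fit has 2 residual degrees of freedom and a prior of 3.54; an exact permutation test could not go below p = 0.33. Genes were named from the platform annotation, updated through identifiers, of which 98.8% matched GRCg7b; 27168 probe sets have 1 gene, 177 several and 11094 none. The brightest probe set stands for a gene. SE is limma's in tests, and for members comes from the SDs. Members, lists and the naming rule were chosen with earlier results of these data known: members, HOPX, measured genes inside the run and 3 beyond each end, called list genes and up to 2 uncalled per list, and the 5 nearest patterns. Alternatives changed the filter, trend, normalisation, replicate block, probe set and arrays used. The procedure was tested on simulated data. Promoter motifs were not analysed here.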

Additional observations from a re-analysis of the deposited data

How the results depend on the processing

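The members' differences moved by less than 1 SD when the arrays were quantile normalised again; equal medians shift every gene alike, and a floor at 4 or a replicate block cannot change these differences. The mean over all probe sets of a gene, which mixes in those near background, gave 0.725 for STX8, 0.898 for PMP22 and 0.161 for COX10, all still above 0, and turned their order. Without each array in turn the differences ranged from 1.391 to 1.589 for STX8, 1.268 to 1.369 for FAM18B1, 1.176 to 1.468 for PMP22, 1.66 to 1.932 for COX10 and 0.841 to 1.17 for METRNL. The counts of calls were less steady. With no filter on low values, 2287 probe sets were higher and 2650 lower at an unadjusted limma p under 0.05, of 38439. Over all probe sets 464 were higher and 674 lower, against 80 and 194 with no filter on low values, where 38439 were tested, and 34 to 728 and 108 to 1006 without each array in turn. For the 18 neighbours, 7 higher became 1 with no filter and 0 to 7 without each array, and the lower count ran from 0 to 1, where FN3K was called without anti-HOPX replicate 1 (-1.21, limma adjusted p = 0.037). For the partner lists, 7 higher and 3 lower became 0 and 0 with no filter by limma (16 and 10 at an unadjusted p under 0.05), 4 higher without the intensity trend, and 0 to 7 in either direction without each array. The lowest counts came without control replicate 1 or without control replicate 2, where the spread comes from the anti-HOPX pair alone. The differences of the 16 called genes were then 83.7% to 115.7% of their size, and their direction could not change because their forms did not overlap. A replicate block gave 1149 higher and 1549 lower over all probe sets and 12 and 8 in the lists. It rests on replicate numbers that the labels do not tie to shared cultures. The deviations of same-numbered arrays correlated at 0.253 over probe sets, and whether such arrays share a culture or batch was not tested. All 16 neighbours and list genes called without the block stayed called with it.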
